A study of Mus musculus with 16 samples.

Results

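Glycolysis and hypoxia response genes were followed in immune cells of the mouse gut as a set of 32 genes, named by symbol and found by identifier among the 35647 genes of the deposited table. By role they were 3 transporters of glucose and lactate, 12 genes of upper glycolysis, 7 of lower glycolysis and the fate of pyruvate, 3 of the oxygen-sensing switch (Hif1a, Egln1 and Egln3) and 7 targets of hypoxia. Mice of wild-type genotype, raised germ-free, carried Bifidobacterium breve as their only bacterium for 5 weeks, either the wild-type strain (WT) or Δchat, a strain that makes no acetylcholine. Lamina propria cells were separated on a Percoll gradient (40% and 80%) from the colon and the ileum, and their poly(A) RNA was sequenced in bulk. Colon and ileum were taken from the same 4 mice per strain, which gave 4 groups of 4 libraries: colon WT, colon Δchat, ileum WT and ileum Δchat. Mice are numbered by the replicate number of their libraries. Every group carried B. breve, so colonization itself was not compared, and the age and sex of the mice are not given in the sources used here.

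Glycolysis splits glucose into pyruvate in the cytosol, and immune cells that are activated or short of oxygen often turn more of that pyruvate into lactate. When oxygen is plentiful, prolyl hydroxylases mark the alpha subunit of the hypoxia-inducible factor (HIF) for destruction. When it is scarce the factor persists, binds a short core sequence in DNA and raises many glycolytic genes along with genes of vessel growth, autophagy and stress. Much of this control acts on the HIF protein, which RNA levels do not show.

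The DNA just upstream of 5 members that the results turn on is printed here, because many glycolytic genes and the hypoxia targets are known to be raised by HIF, and its core sequence can be read in these letters. Capitals mark each match to ACGTG or GCGTG on either strand, so that CACGT and CACGC are matches on the opposite strand. A palindrome CACGTG holds the core on both strands and counts as 2 matches. The windows are RefSeq sequences of 250 bases that end just before an annotated transcript start, in build GRCm38.p6, printed 5′ to 3′ in the direction of transcription. They lie at chr6:82774455-82774704 (minus strand) for Hk2, chr13:55021386-55021635 (minus strand) for Hk3, chr11:120948817-120949066 (plus strand) for Slc16a3, chr7:46845554-46845803 (plus strand) for the upstream of 2 Ldha windows, and chr7:138909507-138909756 (minus strand) for Bnip3.
Hk2: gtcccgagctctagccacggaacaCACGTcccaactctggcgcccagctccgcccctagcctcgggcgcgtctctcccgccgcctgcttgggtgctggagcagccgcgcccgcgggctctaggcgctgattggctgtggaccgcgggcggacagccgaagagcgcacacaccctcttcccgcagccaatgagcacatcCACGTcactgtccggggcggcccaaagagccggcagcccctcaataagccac
Hk3: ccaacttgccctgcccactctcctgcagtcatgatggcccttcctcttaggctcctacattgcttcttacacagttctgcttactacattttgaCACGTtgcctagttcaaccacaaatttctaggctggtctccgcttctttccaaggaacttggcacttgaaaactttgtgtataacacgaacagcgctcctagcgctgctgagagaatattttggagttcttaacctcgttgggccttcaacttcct
Slc16a3: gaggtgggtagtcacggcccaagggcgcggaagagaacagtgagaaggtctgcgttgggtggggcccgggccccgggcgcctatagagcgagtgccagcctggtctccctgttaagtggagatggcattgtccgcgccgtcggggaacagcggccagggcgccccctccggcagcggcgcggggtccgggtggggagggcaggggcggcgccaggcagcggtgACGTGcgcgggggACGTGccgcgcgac
Ldha: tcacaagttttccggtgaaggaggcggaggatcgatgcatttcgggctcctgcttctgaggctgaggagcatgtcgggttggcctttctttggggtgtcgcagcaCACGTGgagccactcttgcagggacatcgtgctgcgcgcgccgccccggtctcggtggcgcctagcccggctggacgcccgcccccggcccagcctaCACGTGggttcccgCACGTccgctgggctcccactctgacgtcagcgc
Bnip3: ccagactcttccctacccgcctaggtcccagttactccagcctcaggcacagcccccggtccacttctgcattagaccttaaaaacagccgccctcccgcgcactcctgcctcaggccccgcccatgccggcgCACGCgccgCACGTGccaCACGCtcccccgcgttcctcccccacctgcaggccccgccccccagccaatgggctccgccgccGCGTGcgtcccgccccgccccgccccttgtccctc
The windows of Ldha and Bnip3 held 5 matches each, those of Hk2 and Slc16a3 held 2 each, and that of Hk3 held 1. Promoter entries were found for 30 of the 32 members. Slc2a3 and Ndrg1 had none. At least 1 match stood in 36 of the members' 44 windows (81.8%), against 12679 of all 32851 windows of this length (38.6%). By gene, 28 of 30 members (93.3%) had a match in some window, against 41.5% of 27025 genes. The base composition of the windows was not matched between the 2 sets, and a match is a description of letters, not a site that the factor is known to use in these cells.

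Library totals ran from 15.9 to 23.6 M estimated counts, and levels are given as CPM (a gene's counts per 1 M counts of its library) scaled over the 16 libraries. CPM is not per length, so levels are compared between libraries of 1 gene and not between genes. A gene is called where the edgeR quasi-likelihood test gave a Benjamini-Hochberg adjusted p under 0.05 over all genes tested, and all 32 members passed the filter on low counts in every comparison. The pan-leukocyte marker Ptprc lay between 588 and 1300 CPM in every library. Genes of other cells were present in every library as well. The collagen gene Col1a1 lay between 234 and 1810 CPM, the endothelial gene Pecam1 between 495 and 1120 and the haemoglobin gene Hbb-bs between 949 and 3110 CPM. A member's level is therefore that of a mixture of cells, and the part of each cell type in it was not tested. One library stood apart: colon Δchat replicate 3 held 4220 CPM of a list of 20 epithelial genes, against 72.2 to 363 CPM in the other 7 colon libraries. Several results that rest on colon Δchat are also given without it.

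With WT B. breve, 8 of the 32 members differed between ileum and colon, 7 of them higher in the ileum and 1 lower. All 3 hexokinases were among the 7, together with the lactate exporter Slc16a3, the regulatory enzyme Pfkfb3, lactate dehydrogenase A and Hif1a. The mitophagy gene Bnip3 was the one that was lower. The same test called 28.8% of all genes between these tissues, so a share of 8 in 32 members is close to that of the table as a whole. The median log2 fold change of the members was 0.05, against -0.04 over all genes tested. With Δchat B. breve, 2 members were called, Hk3 and Hk2, both higher in the ileum, where 13.3% of all genes were called. The members' median was -0.07 there, against -0.02 over all genes tested, and -0.01 without Δchat mouse 3, the mouse of the epithelium-rich library. Of 11 listed immediate early and heat shock genes, 5 were called higher in ileum WT and none lower. They summed to 10700 to 16700 CPM in colon WT and 18600 to 21800 CPM in ileum WT, with no overlap. With Δchat none was called, and the sums of 14000 to 27400 CPM in colon and 16300 to 26600 CPM in ileum overlapped. Whether these genes bear on the members' values was not tested.

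**Figure D1:**
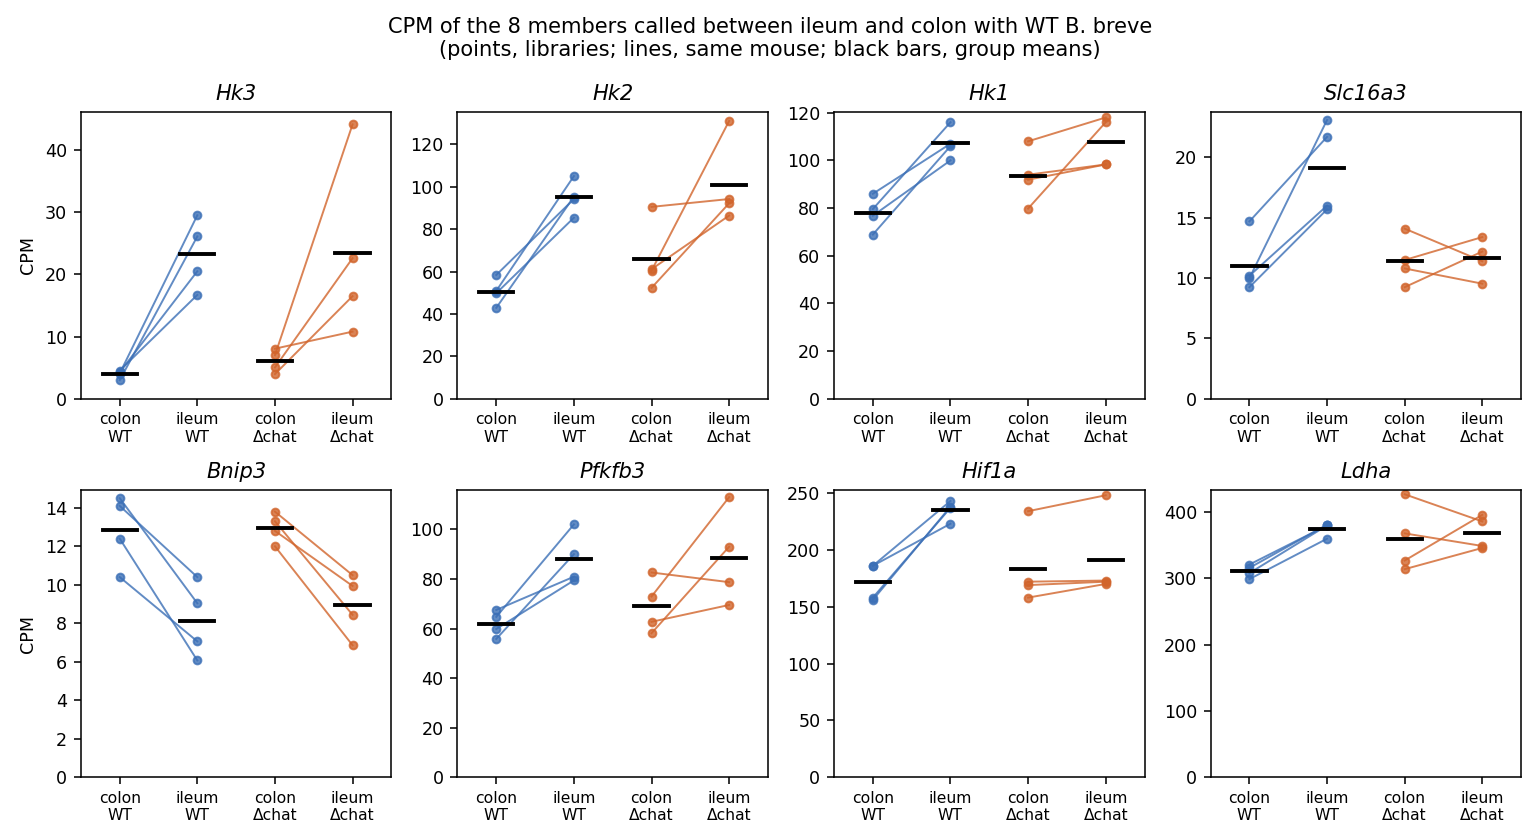
CPM (vertical axes, from 0) of the 8 members called between ileum and colon with WT B. breve. Each point is a library, lines join the 2 libraries of a mouse and black bars are means of 4 libraries. Hk3 in the ileum lies between 10.8 and 44.1 CPM, above every colon library.

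Of the transporters, Slc16a3 (ENSMUSG00000025161), which encodes the monocarboxylate transporter MCT4 that carries lactate out of cells, gave 14.7, 9.25, 10 and 10.2 CPM in colon WT and 21.7, 15.7, 23.1 and 16 CPM in ileum WT. The 4 ileum libraries all lay above the 4 colon libraries. The log2 fold change was 0.79 ± 0.18 (SE, adjusted p = 0.00638). With Δchat it gave 10.8, 11.5, 9.25 and 14.1 CPM in colon and 9.54, 13.4, 12.2 and 11.4 CPM in ileum, so the tissues overlapped, and the difference was 0.02 ± 0.18 (adjusted p = 0.948). It was higher in the ileum in 4 of 4 mice with WT and in 2 of 4 with Δchat.

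The erythrocyte-type glucose transporter Slc2a1 (GLUT1) went the other way, with 95.9 to 119 CPM in colon WT and 93.6 to 101 CPM in ileum WT. In Δchat mice it gave 112 to 130 CPM in colon and 94.2 to 106 CPM in ileum, with no overlap. It was lower in the ileum in 8 of 8 mice, but neither difference was called: -0.16 ± 0.08 (adjusted p = 0.136) in WT and -0.25 ± 0.08 (adjusted p = 0.0543) in Δchat. Its difference in Δchat mice was called in 5 of 14 alternatives, among them DESeq2 (adjusted p = 0.0121). The high-affinity glucose transporter Slc2a3 (GLUT3) ranged from 31.4 to 50.5 CPM over all libraries and was called in no comparison.

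The hexokinases, which trap glucose in the cell as glucose 6-phosphate, included the member with the largest fold change between the tissues in both strains. Hk3 (ENSMUSG00000025877), the isoform known mainly from myeloid cells, gave 4.27, 4.53, 4.07 and 2.99 CPM in colon WT and 20.5, 16.7, 29.5 and 26.1 CPM in ileum WT. In Δchat mice it gave 3.97, 7, 5.04 and 8.06 CPM in colon and 16.5, 44.1, 22.6 and 10.8 CPM in ileum. Neither strain showed any overlap between tissues, and the level was higher in the ileum in 8 of 8 mice. The log2 fold change was 2.54 ± 0.37 in WT (5.83-fold, adjusted p = 4.8e-04) and 1.97 ± 0.36 in Δchat (3.91-fold, adjusted p = 0.00312).

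Macrophage genes moved with Hk3. Of 12 listed macrophage genes, 10 were called higher in the ileum with WT and 10 with Δchat, and their medians on the log2 scale were 2.17 and 1.51. Their summed level was 335 to 451 CPM in colon WT, 420 to 881 in colon Δchat, 1270 to 1800 in ileum WT and 870 to 3810 in ileum Δchat, and none of the 12 was at 0 across a group. A list of 11 neutrophil genes, 4 of 8 tested being called higher in ileum WT, summed to 16.6 to 45.5 CPM in colon WT and 108 to 170 CPM in ileum WT, and to 24.3 to 33.4 and 41.4 to 89.5 CPM with Δchat. Of its defining markers, mean Csf3r rose from 6.78 CPM in colon WT to 18.6 in ileum WT, and Retnlg from 4.29 to 23.7. Mean Cxcr2 went from 0.668 to 1.1 CPM there, while S100a8 fell from 2.38 to 1.86 CPM. With Δchat, mean Csf3r went from 7.47 to 22.9 CPM, but Retnlg fell from 6.84 to 3.47 CPM. Mean Cxcr2 and S100a8 went from 0.258 to 0.513 and from 0.518 to 0.986 CPM with Δchat. Ly6g was at most 0.179 CPM in the ileum. Cxcr1 was at 0 in all 4 ileum WT libraries and Camp in all 4 ileum Δchat libraries. The part of these cells in the Hk3 difference was not tested, and in bulk RNA a change in the number of cells of a type cannot be told apart from a change in RNA per cell.

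Hk2 (ENSMUSG00000000628), the inducible isoform, gave 42.9, 58.4, 50.9 and 49.8 CPM in colon WT and 95.3, 94.2, 105 and 85.4 CPM in ileum WT, again with no overlap. The log2 fold change was 0.91 ± 0.17 (1.88-fold, adjusted p = 0.00189). In Δchat mice the colon libraries gave 52.3, 60.4, 90.5 and 61.1 CPM and the ileum libraries 92.2, 131, 94.2 and 86.4 CPM, and the epithelium-rich replicate 3 of the colon lay within the ileum's range. The difference there was 0.61 ± 0.17 (adjusted p = 0.0237). It was not called without Δchat mouse 1 (adjusted p = 0.0748), Δchat mouse 2 (0.42, adjusted p = 0.166) or WT mouse 3 (adjusted p = 0.0514), and stood at 0.83 without Δchat mouse 3 (adjusted p = 0.00527).

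Hk1 (ENSMUSG00000037012), the constitutive isoform, changed less. Its 68.9 to 86 CPM in colon WT and 100 to 116 CPM in ileum WT did not overlap, and the log2 fold change was 0.46 ± 0.10 (adjusted p = 0.00489). With Δchat it was 0.20 ± 0.10 (adjusted p = 0.191). Hk1 and Hk2 were both higher in the ileum in 8 of 8 mice.

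Within a library the ratio of 2 isoforms does not depend on the library's total. The log2 ratio of Hk3 to Hk1 was -4.48 to -4.10 in colon WT, -4.53 to -3.49 in colon Δchat, -2.79 to -1.85 in ileum WT and -3.17 to -1.40 in ileum Δchat. It was higher in the ileum of 8 of 8 mice by 1.82 on average, with an exact 2-sided sign-flip p of 0.00781, the smallest that 8 mice allow. The ratio of Hk2 to Hk1 was higher in the ileum of 7 of 8 mice by 0.43 (exact sign-flip p = 0.0156). Over the 24 ratio tests made, 8 ratios in 3 comparisons, neither passed after Benjamini-Hochberg adjustment (exact tests, adjusted p = 0.188 for both). Over 24 tests, even a ratio at the smallest p that 8 mice allow could not pass unless several others came near it. That miss was therefore fixed by the number of mice and tests, and no conclusion is drawn from it. The other ratios (Pfkp and Pfkm to Pfkl, Pfkfb4 to Pfkfb3, Aldoc to Aldoa, Slc2a3 to Slc2a1 and Egln3 to Egln1) had larger p-values between the tissues.

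Among the other genes of upper glycolysis, Pfkfb3 (ENSMUSG00000026773), which makes the activator of phosphofructokinase, was the one called. It gave 55.8, 59.8, 67.5 and 64.7 CPM in colon WT and 90, 79.4, 80.9 and 102 CPM in ileum WT, with no overlap. The log2 fold change was 0.51 ± 0.15 (adjusted p = 0.0186), against 0.36 ± 0.15 in Δchat (adjusted p = 0.116), and 7 of 8 mice had more of it in the ileum. The related Pfkfb4 ranged from 10.2 to 30 CPM, with its highest value in ileum Δchat replicate 2, and was not called.

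The rest of upper glycolysis was not called between the tissues in either strain. In WT mice the log2 fold changes of Gpi1 (glucose 6-phosphate isomerase), the phosphofructokinase subunits Pfkl, Pfkm and Pfkp, the aldolases Aldoa and Aldoc, and Tpi1 (triosephosphate isomerase) ran from -0.09 for Aldoc to 0.06 for Gpi1. Over the 16 libraries Gpi1 held 258 to 315 CPM, Pfkl 58.2 to 86.9, Pfkm 10.6 to 17.2 and Pfkp 108 to 129. Aldoa held 267 to 396 CPM, Aldoc 2.91 to 7.83 and Tpi1 62.9 to 138. The highest Aldoa, Aldoc and Tpi1 were all in the epithelium-rich colon Δchat replicate 3. In Δchat mice the difference of Aldoc was -0.39, and -0.11 without mouse 3 (adjusted p = 0.778), and that of Tpi1 was -0.29, and 0.01 without it.

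Of lower glycolysis, Ldha (ENSMUSG00000063229), the lactate dehydrogenase subunit that favours lactate formation, gave 316, 299, 321 and 308 CPM in colon WT and 381, 360, 380 and 380 CPM in ileum WT. The groups did not overlap, though the change was small, at 0.27 ± 0.09 on the log2 scale (adjusted p = 0.0349). In Δchat it was 0.04 ± 0.09 (adjusted p = 0.804). Gapdh, which oxidizes glyceraldehyde 3-phosphate, and Pkm, the pyruvate kinase of most tissues, were likewise without overlap in WT mice, at 689 to 725 against 764 to 853 CPM and at 430 to 455 against 485 to 527 CPM. Neither was called (0.22 ± 0.08, adjusted p = 0.0665, and 0.22 ± 0.08, adjusted p = 0.0582). DESeq2 called both (adjusted p = 0.0168 and 0.0174), as did edgeR with a filter of 1 CPM in 4 libraries (0.0280 and 0.0267). Each of these called 10 members, where DESeq2 called 4961 genes in all and edgeR with that filter 4194. Of the 9 members whose WT libraries did not overlap between tissues, 7 were thus called with the settings used here. The share of all genes without overlap was not counted, in this or any other comparison. A lack of overlap is therefore not shown to be particular to the members.

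Pgk1, Pgam1 and Eno1, which act between Gapdh and Pkm, had log2 fold changes of 0.03, -0.08 and -0.09 in WT mice and held 115 to 181, 76.9 to 105 and 205 to 291 CPM over all libraries. Pdk1, the kinase that keeps pyruvate out of the mitochondrion, gave 25.4 to 37.4 CPM in colon WT and 21.1 to 26.5 CPM in ileum WT and was not called (-0.36 ± 0.18, adjusted p = 0.151). Aldoa, Gapdh, Pgk1, Pgam1, Eno1 and Ldha have near-identical copies in the genome, among which the counting could split reads. The copies in the table stood at 3.36 CPM at most for Pgam1-ps2, at 0.667 for Eno1b and at 0.196 or less for the others, and a second identifier of Aldoa stood at 3.27 CPM at most.

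Hif1a (ENSMUSG00000021109), the oxygen-regulated alpha subunit of HIF, gave 186, 158, 156 and 186 CPM in colon WT and 223, 237, 238 and 243 CPM in ileum WT. The groups did not overlap, and the log2 fold change was 0.45 ± 0.14 (adjusted p = 0.0244). In Δchat mice it gave 172, 234, 158 and 169 CPM in colon and 173, 248, 170 and 172 CPM in ileum. Mouse 2 was high in both tissues, the other 3 mice lay close together, and the difference was 0.06 ± 0.14 (adjusted p = 0.813). Hif1a was higher in the ileum in 8 of 8 mice, by as little as 0.01 on the log2 scale.

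The prolyl hydroxylases, which mark the HIF alpha subunit when oxygen is present, were not called in either strain. Egln1 was narrow in range, from 49.2 to 62.2 CPM over all libraries. Egln3, itself a target of HIF, gave 10.6 to 19.9 CPM in colon WT, 16.6 to 27 in ileum WT, 16.4 to 31.7 in colon Δchat and 13.1 to 26.4 in ileum Δchat. Its log2 fold change was 0.46 ± 0.27 in WT (adjusted p = 0.214) and -0.34 ± 0.27 in Δchat (adjusted p = 0.424).

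Bnip3 (ENSMUSG00000078566), a mitochondrial outer membrane protein of mitophagy and a HIF target, was the member that fell in the ileum. It gave 12.4, 14.5, 14.1 and 10.4 CPM in colon WT and 6.07, 9.04, 10.4 and 7.06 CPM in ileum WT, where the lowest colon library and the highest ileum library met. The log2 fold change was -0.65 ± 0.17 (adjusted p = 0.0131). In Δchat mice, 13.8, 12, 12.8 and 13.3 CPM in colon and 10.5, 6.86, 9.94 and 8.44 CPM in ileum did not overlap. The difference of -0.54 ± 0.17 missed the threshold (adjusted p = 0.0512) and passed it with the mouse as a block in a paired fit (-0.56, adjusted p = 0.0275). Bnip3 was lower in the ileum in 8 of 8 mice.

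The other hypoxia targets were called in no comparison. Vegfa (a growth factor for vessels) held 56 to 88.9 CPM, Ankrd37 (an ankyrin repeat protein) 4.28 to 12.4 and Ddit4 (an inhibitor of growth signalling through mTOR) 55.5 to 122 CPM over all libraries. Adm (the vasodilator peptide adrenomedullin) held 4.63 to 15.6 CPM, P4ha1 (a collagen prolyl hydroxylase) 44.4 to 109 and Ndrg1 (a stress response gene) 140 to 236 CPM. In WT mice their log2 fold changes between ileum and colon ran from -0.27 for Adm to 0.30 for Ndrg1. The 7 hypoxia targets thus did not move as a group between the tissues: 4 had a positive and 3 a negative value in WT mice, and 1 was called.

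**Figure D2:**
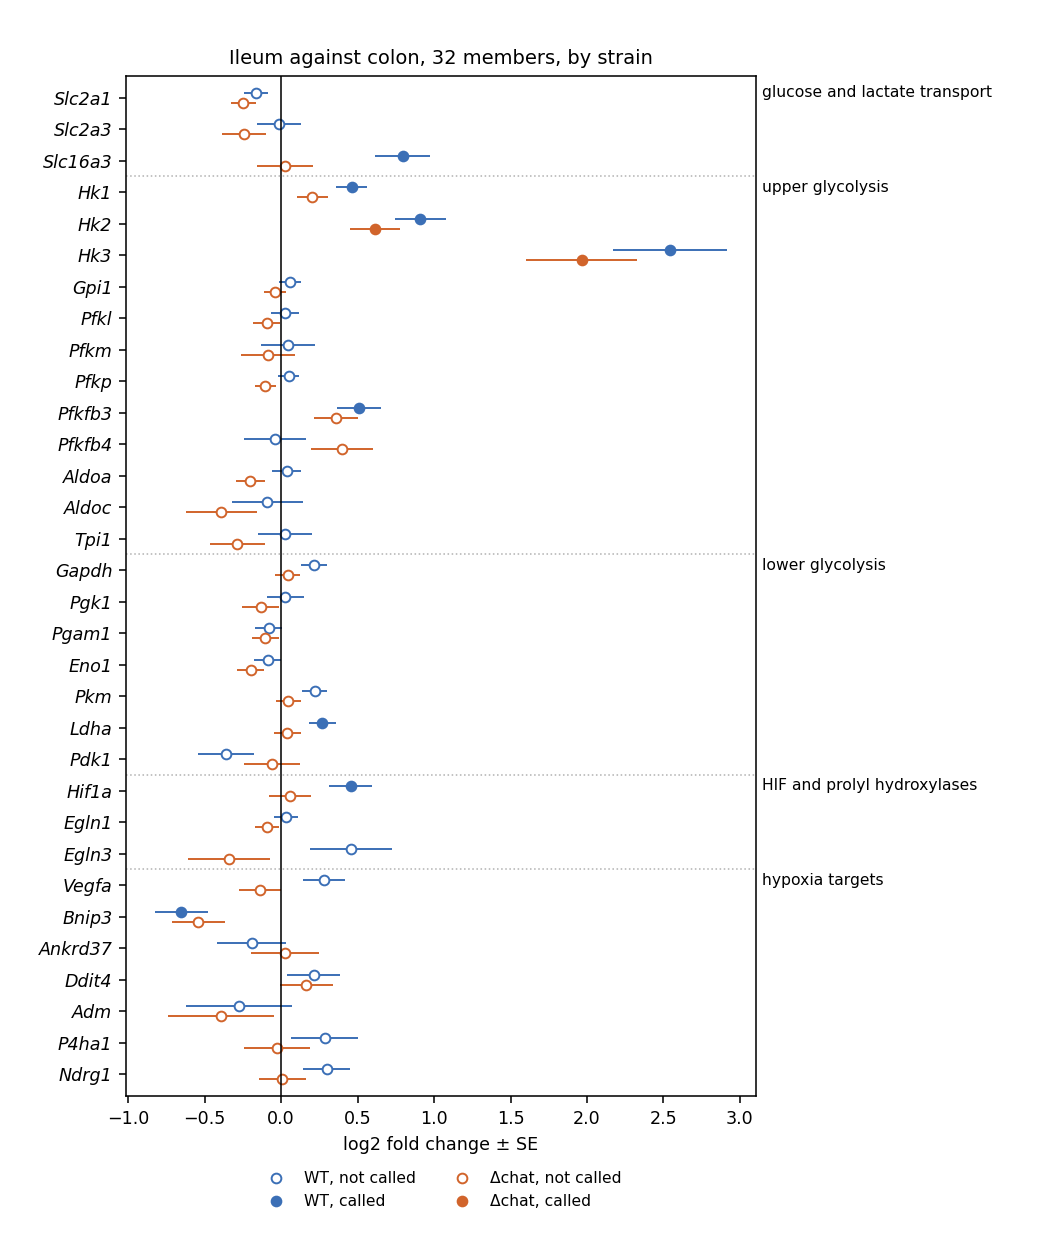
Log2 fold change of ileum against colon (horizontal axis, points with SE bars) for each of the 32 members, in mice with WT (blue) and Δchat (orange) B. breve. Filled points are called members: 8 in WT and 2 in Δchat, with Hk3 farthest from 0.

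The calls in WT mice rest on 4 mice and differ in how they bear leaving 1 out. Hk1, Hk2, Hk3 and Slc16a3 were called without each mouse in turn and in all 14 alternatives. The number of members called was 4 without WT mouse 1, 4 without WT mouse 2, 6 without WT mouse 3 and 5 without WT mouse 4, against 8. Calls over all genes fell as well, to 1719, 2704, 3688 and 2082 in that order, against 4380. Hif1a and Ldha were not called without any 1 of the 4 WT mice, at adjusted p between 0.0550 and 0.0839 for Hif1a and between 0.0733 and 0.133 for Ldha, and Ldha was also lost without a filter on low counts (adjusted p = 0.0514). Pfkfb3 was not called without WT mouse 1 (adjusted p = 0.107), 2 (0.0504) or 4 (0.08), and Bnip3 not without WT mouse 1 (0.0788) or 2 (0.0537), with edgeR throughout. Their log2 fold changes kept their sign in each case.

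The tissue difference of each strain was compared by an interaction term over the 16 libraries. It shares all its libraries with the tissue comparisons of both strains, so its values are given beside theirs and not as support for them. No member was called with edgeR or DESeq2, where 0.0592% of all genes were called with edgeR. An unadjusted p under 0.05 was reached by 2 members and by 7.72% of all genes tested. Slc16a3 had the smallest p, with a tissue difference in Δchat minus that in WT of -0.77 ± 0.26 on the log2 scale (edgeR adjusted p = 0.583). Next came Vegfa at -0.42 ± 0.20, Egln3 at -0.80 ± 0.38 and Hif1a at -0.39 ± 0.19 (adjusted p = 0.637 for each). The members' median was -0.17, against 0.02 over all genes tested, with 28 of 32 values negative. Hk3 and Hk2, with -0.58 ± 0.50 and -0.30 ± 0.23, were not shown to differ between strains in their tissue contrast. Without Δchat mouse 3 the value of Hk2 was -0.13 (adjusted p = 0.834). Marker lists leaned both ways in the interaction. Of 8 neutrophil genes tested, 5 were negative and 3 positive, and 2 were called, both negative. Negative too were 19 of 20 epithelial, 12 of 12 macrophage and 8 of 11 immediate early and heat shock genes. Positive were 11 of 11 B cell and 11 of 12 plasma cell genes. The part of these genes and cells in the values of Slc16a3 and the other members was not tested.

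**Figure D3:**
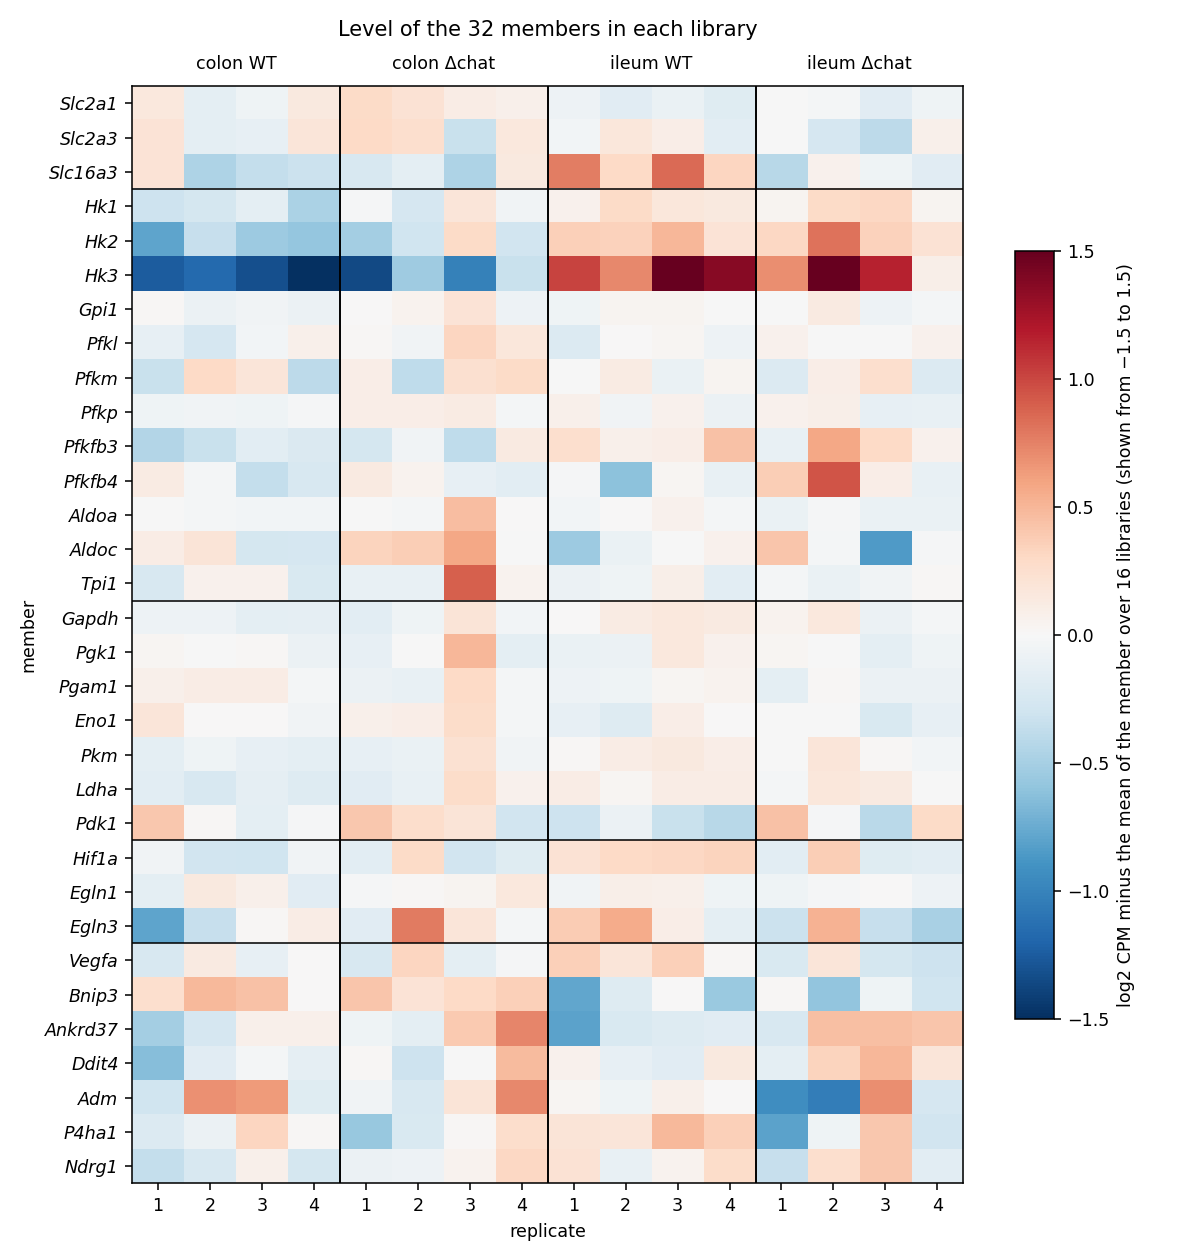
Log2 CPM of each member (rows) in each of the 16 libraries (columns, by group and replicate), minus that member's mean over the libraries. The colour scale stops at -1.5 and 1.5, which Hk3 exceeds, and colon Δchat replicate 3 is red through most glycolytic enzymes.

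In the colon, no member passed the test between the strains of B. breve, with edgeR or with DESeq2. Of the 32, 2 had an unadjusted p under 0.05, as did 13.3% of all genes tested. At the adjusted threshold edgeR called 0.00682% of all genes. The groups overlapped for all 32 members. The values leaned one way: 29 were higher and 3 lower in Δchat, and their median on the log2 scale was 0.13, against 0.01 over all genes tested, of which 51% were higher. Members share a pathway and libraries, so these are not 32 independent observations.

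Hk3 and Hk1 had the smallest p-values in the colon, followed by Hk2 and Aldoc, and all 4 missed the threshold. Hk3 gave 2.99 to 4.53 CPM with WT and 3.97 to 8.06 CPM with Δchat (0.61 ± 0.25, adjusted p = 0.350). Hk1 gave 68.9 to 86 and 79.8 to 108 CPM (0.28 ± 0.11, adjusted p = 0.350). Hk2 gave 42.9 to 58.4 and 52.3 to 90.5 CPM (0.41 ± 0.18, adjusted p = 0.378) and Aldoc 4.35 to 5.97 and 5.19 to 7.83 CPM (0.39 ± 0.19, adjusted p = 0.406), all with edgeR.

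Colon Δchat replicate 3 held the highest value of the 8 colon libraries for 14 of the 32 members, all of them enzymes of glycolysis. Tpi1 was at 138 CPM there and at 62.9 to 77.6 in the other colon libraries, Aldoa at 396 against 278 to 287, and Pgk1 at 181 against 115 to 130 CPM. Without it, the log2 fold change of Hk2 was 0.20 (adjusted p = 0.530) in place of 0.41 and that of Tpi1 0.03 (adjusted p = 0.948) in place of 0.35. That of Hk3 was 0.67 (adjusted p = 0.373), and the members' median was 0.11. Levels of the 20 epithelial genes summed to 72.2 to 266 CPM in colon WT and to 316 to 4220 CPM in colon Δchat, and all 19 of those tested were higher in Δchat, 18 with an unadjusted p under 0.05 and none called. With the mean epithelial level as a covariate, Hk2 stood at -0.04 and 19 members were higher and 13 lower, with a median of 0.05, and 10 members had changed sign. The epithelial level did not overlap between the strains in the colon, and replicate 3 was far above the rest. Effects of the covariate and of strain therefore cannot be told apart by this fit. Macrophage genes were also higher in colon Δchat, 12 of 12, with 11 at an unadjusted p under 0.05 and none called by edgeR. Listed plasma cell genes were lower there, 12 of 12, all with an unadjusted p under 0.05 and none called, at a median of -1.04. They summed to 45100 to 87300 CPM in colon WT and 23600 to 33100 CPM in colon Δchat, with no overlap. Immediate early and heat shock genes were higher in colon Δchat, 11 of 11, with 2 at an unadjusted p under 0.05 and none called by edgeR. Whether macrophages, plasma cells or these genes bear on the members' values was not tested.

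**Figure D4:**
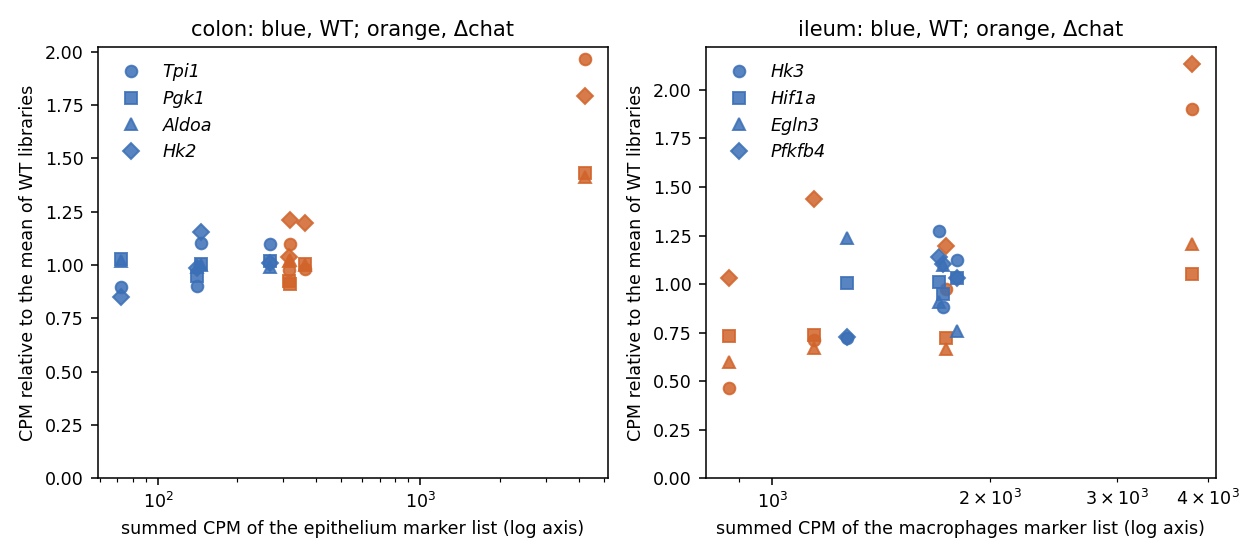
CPM of 4 members relative to the mean of the WT libraries (vertical axes, from 0) against the summed CPM of a marker list (horizontal log axes): epithelial genes in the colon, left, and macrophage genes in the ileum, right. The members drawn were chosen after their values were seen, and the points at the far right are colon Δchat replicate 3 (4220 CPM) and ileum Δchat replicate 2 (3810 CPM).

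In the ileum, likewise, edgeR called no member between the strains, where 0.0207% of all genes tested were called. An unadjusted p under 0.05 was reached by 4 of the 32 members and by 10.9% of all genes tested. DESeq2 called 1 member, Slc16a3, and 375 genes in all. There were 9 members higher and 23 lower in Δchat, with a median of -0.05, against 0.02 over all genes tested. The ileum and colon comparisons share no library, but both use the same 8 mice and so are not independent. Marker lists of other cells leaned both ways in ileum Δchat, with none of their genes called by edgeR. Lower were 12 of 12 plasma cell genes (9 at an unadjusted p under 0.05, median -0.50). Lower too were 6 of 8 neutrophil genes tested (4, median -1.17) and 6 of 11 genes of stroma and smooth muscle (1, median -0.98). Higher were 11 of 11 B cell genes (median 0.53), 19 of 20 epithelial genes (0.795) and 10 of 12 macrophage genes (0.16). T cell genes (9 of 11) and those of mast cells and eosinophils (8 of 9) were mostly lower. Endothelial (6 of 8) and erythroid genes (5 of 5) were mostly higher. Summed levels with WT and Δchat were 109000 to 199000 and 66900 to 115000 CPM for plasma cells, 108 to 170 and 41.4 to 89.5 CPM for neutrophils, and 4220 to 6720 and 1410 to 6730 CPM for stroma. The part of these cells in the members' values was not tested.

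Slc16a3 was the single member whose ileum groups did not overlap, and how many of all genes lacked overlap was not counted. Slc16a3 gave 21.7, 15.7, 23.1 and 16 CPM with WT and 9.54, 13.4, 12.2 and 11.4 CPM with Δchat. The log2 fold change of -0.74 ± 0.16 missed the threshold with edgeR (adjusted p = 0.183) and passed it with DESeq2 (-0.73, adjusted p = 0.00698). Leaving out 1 library at a time gave edgeR values from -0.82 to -0.63, none called. The 4 ileum Δchat libraries lay within the range of the 8 colon libraries, 9.25 to 14.7 CPM.

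Hif1a and its target Vegfa showed 1 library apart. Hif1a gave 223, 237, 238 and 243 CPM with WT and 173, 248, 170 and 172 CPM with Δchat, and Vegfa 88.7, 79.1, 88.9 and 70.2 CPM with WT and 59.1, 79.1, 58.1 and 56 CPM with Δchat. In both, ileum Δchat replicate 2 was as high as WT libraries and the other 3 were lower than all 4 of them. The log2 fold changes were -0.33 ± 0.12 for Hif1a (adjusted p = 0.383) and -0.40 ± 0.12 for Vegfa (adjusted p = 0.296), and without that library -0.47 (adjusted p = 0.0823) and -0.52 (adjusted p = 0.110). Ankrd37 leaned the other way, with 4.28, 6.4, 6.55 and 6.67 CPM in WT and 6.34, 10.2, 10.2 and 9.98 CPM in Δchat (0.60 ± 0.21, adjusted p = 0.334). None of the 3 was called by edgeR or DESeq2.

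Ileum Δchat replicate 2 was the highest of the 8 ileum libraries for 10 members, among them Hk2, Hk3, Pfkfb3, Pfkfb4, Ldha and Hif1a. It also had the highest summed level of macrophage genes, 3810 CPM, against 870 to 1800 CPM in the other 7. Pfkfb4 stood at 30 CPM there and at 10.2 to 20.2 CPM in the others. The part of these cells in those values was not tested.

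**Figure D5:**
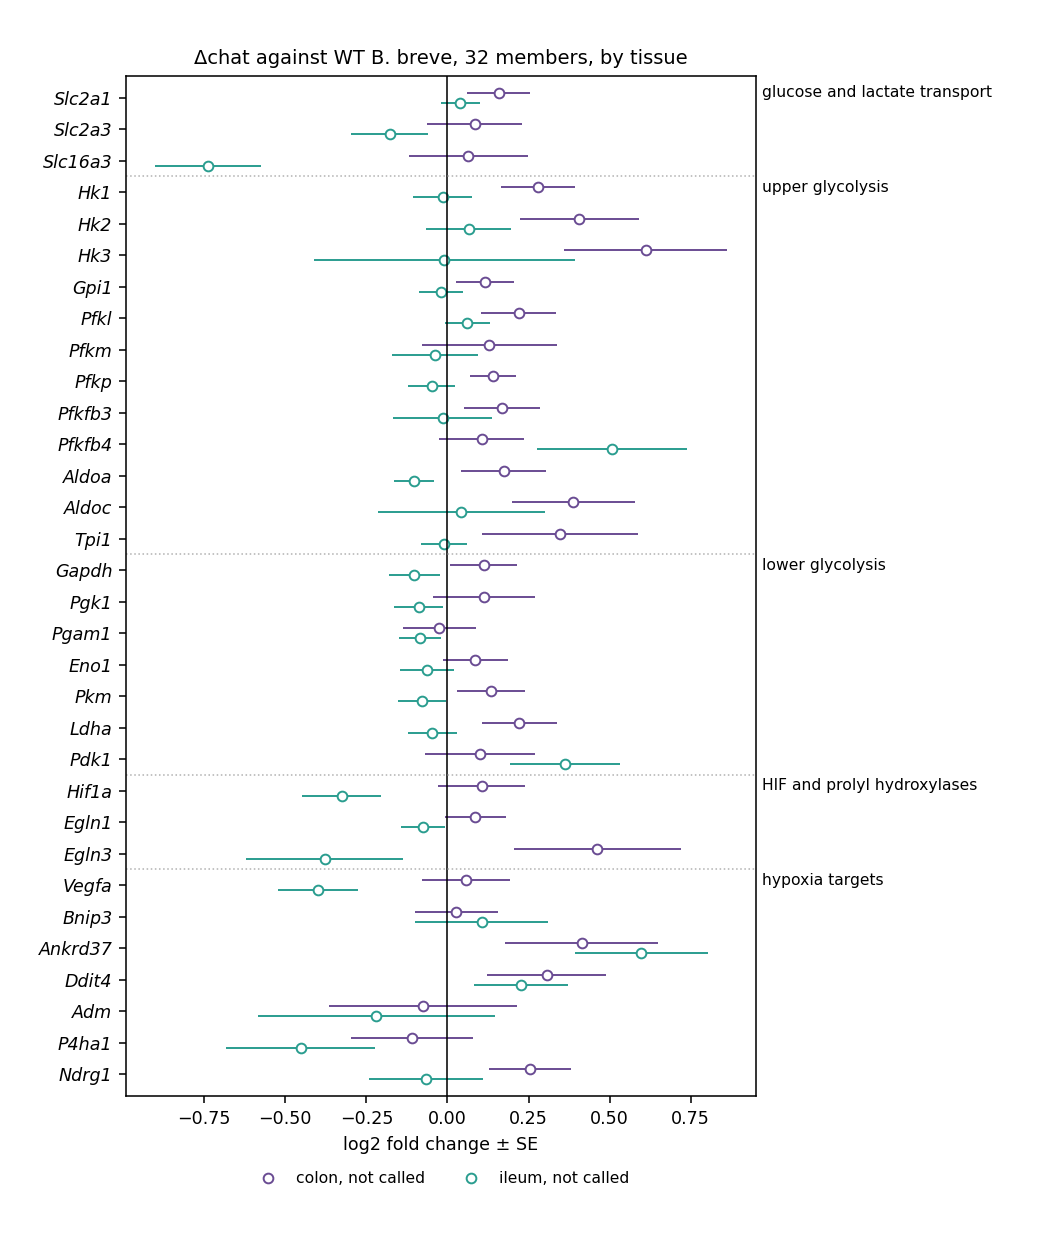
Log2 fold change of Δchat against WT B. breve (horizontal axis, points with SE bars) for each of the 32 members, in colon (purple) and ileum (green). All points are open because no member was called. In the colon 29 of 32 lie above 0 and in the ileum 9.

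Other genes of these pathways, in 8 lists, placed the members' changes among their neighbours. The counts called in these lists stand beside 28.8% of all genes called between ileum and colon with WT and 13.3% with Δchat. None was tested against that share. Between ileum and colon with WT B. breve, 10 of 33 tested hypoxia targets outside the members were called higher and 2 lower, with a median of 0.11. Hilpda, a lipid droplet protein induced by hypoxia, rose from 46.3 ± 7.59 (SD, n = 4) to 95.2 ± 11.9 CPM (log2 fold change 1.04 ± 0.16, adjusted p = 7.0e-04, edgeR). The nuclear receptor Rora (1.36 ± 0.21, adjusted p = 5.8e-04) and the repressor Bhlhe40 (0.74 ± 0.11, adjusted p = 4.8e-04) rose too. With Δchat, 5 were called higher and 2 lower, and Hilpda (0.85 ± 0.16, adjusted p = 0.00370) and Rora (0.84 ± 0.20, adjusted p = 0.0142) were among those higher. Bnip3 thus fell in the tissue where Hilpda rose.

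Regulators of HIF other than the members were mostly lower in the ileum of WT mice, 6 of 14 called lower and 2 called higher. Egln2, another prolyl hydroxylase, fell from 118 ± 16.6 to 67.7 ± 6.31 CPM (SD, n = 4; -0.80 ± 0.15, adjusted p = 0.00215 with edgeR), while Epas1, which encodes HIF-2 alpha, rose from 424 ± 91 to 816 ± 39.3 CPM (0.94 ± 0.18, adjusted p = 0.00241). Cited2, which competes with HIF for its coactivator, rose by 0.78 ± 0.10 (adjusted p = 1.8e-04). With Δchat, 2 were called in each direction: Cited2 (0.67 ± 0.10) and Epas1 (0.65 ± 0.18) rose, and Hif1an, the asparagine hydroxylase of HIF, fell (-0.47 ± 0.13, adjusted p = 0.0243), as did Egln2. Epas1 is abundant in endothelium, and the endothelial list was called higher in the ileum for 7 of 8 genes with WT and 4 of 8 with Δchat, its summed level being 1950 to 3000 CPM in colon WT and 4280 to 5810 CPM in ileum WT. Its part in the Epas1 difference was not tested.

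At the exit from glycolysis, Mpc1, a subunit of the carrier that brings pyruvate into mitochondria, fell in the ileum from 45.5 ± 6.82 to 28.1 ± 2.08 CPM with WT (SD, n = 4; -0.69 ± 0.13, adjusted p = 0.00209, edgeR). It fell with Δchat as well (-0.58 ± 0.13, adjusted p = 0.00822). Pcx, which carboxylates pyruvate, rose with WT (1.13 ± 0.26, adjusted p = 0.00710), and these 2 were the only ones called of 13 genes of pyruvate entry. With Δchat the 2 called, both lower, were Mpc1 and Dld, a subunit of pyruvate dehydrogenase.

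Other glycolytic isoenzymes gave 2 called higher and 1 lower of 15 with WT: Pgm2 (0.75 ± 0.10, adjusted p = 2.6e-04) and Bpgm (0.37 ± 0.11, adjusted p = 0.0176), both phosphate-moving mutases, and Adpgk, an ADP-dependent glucokinase (-0.45 ± 0.15, adjusted p = 0.0360). With Δchat, Bpgm was called higher (0.60 ± 0.11, adjusted p = 0.00235) and the muscle enolase Eno3 lower (-1.09 ± 0.34, adjusted p = 0.0462). None of 12 other sugar and lactate transporters was called with WT by edgeR, the smallest p being that of Slc2a4 (-0.64 ± 0.33, adjusted p = 0.162), and with Δchat Slc2a9, a urate and sugar transporter, was called higher (0.50 ± 0.16, adjusted p = 0.0480). In the pentose phosphate pathway Taldo1 (transaldolase) was the 1 of 8 called with WT, higher by 0.38 ± 0.08 (adjusted p = 0.00396), and none was called with Δchat.

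Of growth and glucose-sensing regulators, 5 of 16 were called lower in ileum WT and 1 higher. Myc, a transcription factor that raises glycolytic genes, fell from 135 ± 34.3 to 68.3 ± 8.2 CPM (SD, n = 4; -0.98 ± 0.24, adjusted p = 0.00957, edgeR), and Sesn1 (-0.75 ± 0.18) and Tsc1 (-0.45 ± 0.12), both brakes on mTOR, fell too. Listed B cell genes, 11 of 11, were called lower in ileum WT, and their part in these values was not tested. Of gluconeogenesis and fructose, Khk (ketohexokinase) was called higher with WT (0.48 ± 0.16, adjusted p = 0.0375). With Δchat, Tkfc, a kinase of fructose breakdown, rose (0.75 ± 0.18, adjusted p = 0.0129) and Pck1, an enzyme of gluconeogenesis, fell (-5.86 ± 1.41, adjusted p = 0.0144). Pck1 ranged from 2.29 to 78.8 CPM in colon Δchat and from 0 to 0.943 CPM in ileum Δchat, and without Δchat mouse 3 its difference was -2.84 and not called (adjusted p = 0.112).

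Of the 16 pathway genes named as called with WT, 10 were called without each of the 8 mice in turn. The exceptions were Bpgm (lost without WT mouse 1 or 2), Adpgk (without WT mouse 1, 2 or 4 or Δchat mouse 4), Khk (without any 1 WT mouse or Δchat mouse 1), Tsc1 (without WT mouse 1 or 4), and Sesn1 and Myc (each without WT mouse 1). With 1 mouse left out, Tsc1 and Adpgk stood at -0.27 and -0.31 at the least. With Δchat, 5 of 16 were called without each mouse: Bpgm, Mpc1, Cited2, Hilpda and Selenbp1 (-2.58 ± 0.63, adjusted p = 0.0157), a selenium-binding protein. Without Δchat mouse 2, Epas1 (0.46, adjusted p = 0.151), Hif1an and Dld were lost. Without Δchat mouse 3 the losses were Epas1, Rora, Dld, Pck1, Eno3 (-0.31), Slc2a9, Sesn1 and Ppargc1a, a coactivator of mitochondrial genes (-2.24 ± 0.57, adjusted p = 0.0167 with all mice). Hif1an and Rora were lost without Δchat mouse 4, and Tkfc without Δchat mouse 1 or 4. Eno3, Slc2a9, Sesn1 (-0.59 ± 0.18, adjusted p = 0.0458) and the mTOR inhibitor Ddit4l (-1.31 ± 0.38, adjusted p = 0.0345) were each lost without any of 5 or more of the 8 mice.

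Between the strains, no gene of the 8 lists was called by edgeR in either tissue or in the interaction. In the colon the genes with the smallest p of a list included Slc5a1 (3.45 ± 1.17, adjusted p = 0.328), Pcx (1.02 ± 0.33), Pck1 (3.75 ± 1.43), Rpia (-0.30 ± 0.09), Epas1 (0.52 ± 0.20), Bhlhe40 (0.36 ± 0.09, adjusted p = 0.290) and Ppargc1a (1.27 ± 0.57). Slc5a1 and Pck1 are known from intestinal epithelium, and colon Δchat held 2.67 to 51.4 and 2.29 to 78.8 CPM of them. Without colon Δchat replicate 3 the log2 fold changes were 1.28 for Slc5a1, 0.97 for Pck1, 0.58 for Pcx and 0.35 for Ppargc1a, none called, and those of Rpia, Epas1 and Bhlhe40 were -0.29, 0.57 and 0.36. In the ileum the smallest p of each list went to Pgm2 (-0.40 ± 0.09, adjusted p = 0.189), Slc2a9 (0.70 ± 0.18), Pcx (0.65 ± 0.14, adjusted p = 0.183), Slc37a4 (0.19 ± 0.11), Taldo1 (-0.10 ± 0.07), Vhl (0.21 ± 0.11), Kdm3a (0.23 ± 0.07) and Prkaa1 (0.16 ± 0.06). In the interaction Pgm2 had the smallest p of the 8 lists (-0.63 ± 0.14, adjusted p = 0.247).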

How the data were processed

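RNA of 16 libraries, 4 per group of tissue and strain, was measured by bulk sequencing of poly(A) RNA. The authors deposited Salmon's estimated counts by gene. Per the submitters' processing notes, the tools were cutadapt 5.0 and Salmon 1.4.0 and the build was GRCm39. Whether strand was used is not given in the sources used here. Of 35647 identifiers, 542 had no symbol and took at most 0.105% of a library's counts.

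Counts were rounded and tested in R 4.3.3 with edgeR 4.0.16: filterByExpr, TMM scaling, a robust quasi-likelihood fit and 2-sided tests. A gene was called where p, adjusted by Benjamini-Hochberg over every gene in the fit, was under 0.05. Strain comparisons used the 8 libraries of a tissue, which left 14660 genes in colon and 14496 in ileum. Tissue comparisons and the interaction used 1 fit of 16 libraries and 15198 genes. Printed CPM were scaled by TMM over 16 libraries. Log2 ratios and log2 CPM carry a prior count of 2, which the fold changes of the fits do not. The fits were checked on simulated data.

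By their labels the libraries within a group come from separate mice, and p-values measure the spread between libraries. The main fit for the tissue comparisons and the interaction had no term for the mouse, although each mouse gave a library of both tissues. A paired fit with the mouse as a block was among the alternatives. Replicates of a group differed beyond sampling noise (chi-square per degree of freedom 25.7 to 96), so none was merged. Colon and ileum libraries were paired by the mouse in the library names. The deviations of a mouse's 2 libraries from their group means correlated at -0.18 to 0.274 over genes, above 0.1 in 3 of 8 mice. Libraries of different mice that share only a replicate number correlated at -0.0947 to 0.335 in the colon, above 0.1 in 2 of 4. In the ileum they correlated at -0.269 to 0.0132. The correlations thus do not show the pairing. Counts of mice, sign-flip tests and the paired fit rest on the library names.

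Members and lists were chosen with earlier results of these data known. Fold changes are named for all members called, or for the 4 with the smallest p where fewer than 4 were called, and for up to 3 called genes of each pathway list, or the 1 with the smallest p. In the colon, 1 gene that this rule takes is not reported here. Levels or differences given beyond that serve to account for every member. Alternatives were RLE size factors, no filter, a filter of 1 CPM in 4 libraries, DESeq2 1.42.0 and an epithelial covariate. Others were a replicate block, 1 fit for all libraries, a prior count of 0.5 for the ratios, and leaving out each library or mouse. Between tissues and in the interaction the replicate block was the mouse. Between strains it was the replicate number, which does not pair mice across strains, so that block is arbitrary.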

Additional observations from a re-analysis of the deposited data

Results flagged for a closer look

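Within the 128 groups of 4 libraries formed by the 32 members, 10 (7.81%) held a library that was highest or lowest by a gap past Dixon's critical value for 4 samples. Chance flags about 1 in 20 groups, and several of these members share a library. Ileum Δchat replicate 2 stood apart in 4 of them: Hif1a at 248 CPM against 170 to 173 in the other 3 libraries, Egln3 at 26.4 against 13.1 to 14.7, Vegfa at 79.1 against 56 to 59.1, and Aldoa at 284 against 267 to 268 CPM. Colon Δchat replicate 3, the epithelium-rich library, stood apart for Aldoa at 396 CPM against 281 to 287 and for Tpi1 at 138 against 68.6 to 77 CPM. Ankrd37 was low in replicate 1 of both ileum groups, at 4.28 CPM with WT against 6.4 to 6.67 and at 6.34 CPM with Δchat against 9.98 to 10.2. Slc16a3 was high in colon WT replicate 1, at 14.7 CPM against 9.25 to 10.2. Ldha was low in ileum WT replicate 2, at 360 CPM against 380 to 381.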

How the results depend on the processing

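No member changed direction among those called. With an epithelial covariate in the colon, uncalled strain values turned for 10 of the 32 members (19 were then higher and 13 lower, against 29 and 3). The epithelial level did not overlap between the strains there, so the covariate cannot be told apart from strain. Of the genes named by rule, Hk2 turned to -0.0395, Pck1 to -0.45 and Ppargc1a to -0.285, and the members' median was 0.0535. Members called with Δchat between tissues were 4 with RLE size factors (2016 genes in all) and 4 with DESeq2 (2769 genes). DESeq2 called 1 member between strains in the ileum. All genes called between strains in the colon numbered 308 with DESeq2, 2 with the covariate, 0 with a replicate block and 10 in 1 fit over 16 libraries. In the ileum they numbered 0 with RLE, 5 with no filter, 0 with the filter of 1 CPM, 375 with DESeq2, 0 with the covariate, 0 with a replicate block and 42 in 1 fit. The interaction gave 58 with DESeq2 and 3 with a replicate block. With the mouse as a replicate block, 8 members were called between tissues with WT (3900 genes in all) and 3 with Δchat (1875 genes). Of the isoform ratios, 2 passed when tissues were compared with no replicate block. The cause of these changes was not tested.

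Leaving out 1 library or mouse gave 0 to 3 genes called between strains in the colon, 0 to 247 in the ileum and 0 to 18 in the interaction, where the members' median ran from -0.245 to -0.147. Between tissues it gave 4 to 10 members and 1719 to 4950 genes with WT (median 0.0464 to 0.125), and 1 to 3 members and 1149 to 1838 genes with Δchat. The 247 came without ileum Δchat replicate 3, and 1719 and 1149 without WT mouse 1 and Δchat mouse 2. RLE size factors moved the share of higher calls with WT from 47.5 to 51.3% and the 1 CPM filter to 55.1%. Depth of 15.9 to 23.6 M counts per library left all 32 members above the filter.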
